A study of Mus musculus with 3 samples.

Results

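Cycling macrophages and monocytes of the mouse aorta were taken as single-cell barcodes that held RNA of the growth factor receptor gene Csf1r together with RNA of 2 genes of dividing cells, Mki67 and Top2a. A barcode was kept if it had at least 200 detected genes and at most 10% of its unique molecular identifiers (UMIs, each a counted RNA molecule) in mitochondrial genes. A cycling barcode had at least 1 UMI each of Mki67, Top2a and Csf1r, and none of the B cell gene Cd79a or the T cell gene Cd3e. There were 349 such barcodes among 20903 kept barcodes, 102 of 6038 in the control library, 49 of 8155 in the library labelled HHcy and 198 of 6710 in the WD library. They were set against 4844 non-cycling barcodes, which had Csf1r but no UMI of Mki67, Top2a, Cd79a or Cd3e (1556, 1061 and 2227 in the same order).

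All mice were ApoE-/- on the C57BL/6J background, a deletion shared by the controls. The control mice had no listed supplement, the HHcy mice had homocysteine at 1.8 g/L in their drinking water for 4 weeks, and the WD mice had a western diet for 4 weeks. Live CD45+ cells were sorted from digested whole aortas with the adventitia, so perivascular and any remaining blood leukocytes could enter the sort. Each condition was 1 library, and the number of mice behind a library is not given in the sources used here. Counts of cells are therefore given with intervals that cover counting error only, and no test between conditions was possible.

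Macrophage numbers in an artery are known to be kept up by recruitment of blood monocytes and by division of cells already in the wall. Csf1r, the receptor for Csf1 and Il34, carries the main survival and growth signal of monocytes and macrophages. A dividing cell switches on DNA replication genes in S phase and then kinases, cyclins and spindle proteins for G2 and mitosis. Mki67 coats mitotic chromosomes, and Top2a untangles sister DNA strands.

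The promoters of 4 cell cycle genes are printed because the G2 and mitosis genes and the replication genes that were higher in cycling barcodes differed in the short motifs they carried. Each run is 5′ to 3′ on the gene's strand, from 250 bases before to 50 bases after the RefSeq start on GRCm38.p6. Capitals mark, on either strand, the cell cycle genes homology region (CHR) motif TTTGAA, the CCAAT box, and E2F-type motifs. The E2F-type motifs searched were TTTCCCG with its variant TTTGGCG, and also TTTCGCG with its variant TTTGCCG. Longer runs of capitals are matches that overlap or touch. Mki67 lies at chr7:135689784-135716450 and Top2a at chr11:98992947-99024199, Ube2c at chr2:164769929-164772902 and Mcm3 at chr1:20802966-20820312. The windows printed are chr7:135716330-135716629 (minus strand), chr11:99024140-99024439 (minus strand), chr2:164769679-164769978 (plus strand) and chr1:20820263-20820562 (minus strand).
Mki67: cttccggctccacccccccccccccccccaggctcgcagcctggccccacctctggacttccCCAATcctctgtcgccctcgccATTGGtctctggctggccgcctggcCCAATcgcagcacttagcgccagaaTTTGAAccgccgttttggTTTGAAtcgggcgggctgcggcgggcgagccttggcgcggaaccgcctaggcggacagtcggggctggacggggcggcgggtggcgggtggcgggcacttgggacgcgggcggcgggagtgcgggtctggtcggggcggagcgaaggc
Top2a: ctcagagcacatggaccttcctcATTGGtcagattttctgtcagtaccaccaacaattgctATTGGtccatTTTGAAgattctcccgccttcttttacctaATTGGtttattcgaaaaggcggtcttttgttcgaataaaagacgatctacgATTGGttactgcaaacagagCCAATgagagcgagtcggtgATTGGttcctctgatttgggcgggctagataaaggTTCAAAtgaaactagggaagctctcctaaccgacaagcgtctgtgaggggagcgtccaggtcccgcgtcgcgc
Ube2c: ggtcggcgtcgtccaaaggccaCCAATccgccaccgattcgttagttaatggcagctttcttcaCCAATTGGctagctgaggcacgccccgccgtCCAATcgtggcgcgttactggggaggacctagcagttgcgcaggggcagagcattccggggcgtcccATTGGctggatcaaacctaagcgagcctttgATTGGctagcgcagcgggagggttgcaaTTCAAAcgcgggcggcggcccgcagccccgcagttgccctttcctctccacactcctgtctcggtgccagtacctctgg
Mcm3: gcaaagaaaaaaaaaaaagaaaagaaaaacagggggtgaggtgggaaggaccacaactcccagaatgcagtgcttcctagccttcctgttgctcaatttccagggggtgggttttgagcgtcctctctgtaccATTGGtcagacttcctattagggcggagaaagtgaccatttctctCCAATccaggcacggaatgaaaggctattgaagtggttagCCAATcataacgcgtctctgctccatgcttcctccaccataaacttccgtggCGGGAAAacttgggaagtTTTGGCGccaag
The Mki67 window held 2 CHR and 3 CCAAT matches, the Top2a window 2 and 6, and the window of Ube2c, which helps to degrade mitotic cyclins, 1 and 6. None of these 3 windows held an E2F match. The window of Mcm3, a subunit of the replicative helicase, held 2 E2F and 3 CCAAT matches and no CHR match. Mcm3 was picked as the higher replication gene with most UMIs in cycling barcodes among those with an E2F match. Ube2c was picked in the same way among G2 and mitosis genes with a CHR match. The E2F match of Mcm3 and the CHR match of Ube2c were therefore set by the choice. A CHR match lay in 25 of 31 windows (80.6%) of the G2 and mitosis genes that were higher in cycling barcodes, of which 30 of 34 genes matched RefSeq, and in 17.9% of all 32851 promoter windows. CHR and CCAAT matches stood together in 67.7% of those windows and in 6.95% of all windows. Replication genes higher in cycling barcodes had an E2F match in 11 of 26 windows (42.3%; 21 of 25 genes matched), against 6.70% of all windows, and a CHR match in 7.69%. The higher G2 and mitosis genes also had an E2F match in 19.4% of their windows, above the share of all windows. Over the whole lists, with genes that were not higher or not tested, a CHR match lay in 67.3% of 52 G2 and mitosis windows. An E2F match lay in 43.2% of 37 replication windows. The motif shares thus belong to the lists as chosen and are not particular to the genes that were higher. A match describes the letters of the window and is not evidence of a bound factor.

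The libraries held 7512, 9753 and 8557 called barcodes and 66789257, 105180370 and 93164076 UMIs, given as everywhere below in the order control, HHcy, WD. Between 20 and 24 called barcode sequences recurred in each pair of libraries, and 0 did among barcodes with Csf1r. The deleted gene went against 1 label: Apoe stood at 14.9, 251 and 10.3 CPM (UMIs of a gene in every 1000000 UMIs of the set) in cycling barcodes and at 25.8, 811 and 28.4 CPM in non-cycling ones. Where the deletion lies in Apoe is not given in the sources used here, and UMIs at the 3′ end of a transcript do not check a deletion elsewhere, so that library is called the library labelled HHcy. Apoe UMIs reached 22 of its 49 cycling barcodes, and 40.5% of them lay in 1 barcode.

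Over all depths, cycling barcodes were most frequent in the WD library and least frequent in the library labelled HHcy. Of cycling and non-cycling barcodes together, they made up 6.15% (95% Clopper-Pearson interval 5.04 to 7.42) in the control library, 4.41% (3.28 to 5.79) in the library labelled HHcy, and the WD library had 8.16% (7.11 to 9.33). The WD share was 1.33-fold that of the control library (log2 ratio 0.41, interval 0.076 to 0.74) and 1.85-fold that of the library labelled HHcy (0.89, 0.45 to 1.33). The share in the library labelled HHcy was lower than in the control by 0.48 on the log2 scale, with an interval that reached 0 (-0.96 to 0.00027). The WD to control ratio had an interval that reached 0 under 4 of 10 other settings, among them barcodes of at least 10000 UMIs (0.17, -0.19 to 0.53). With 1 library in each condition, the diet or homocysteine and every other difference between the libraries cannot be told apart.

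The genes that chose the barcodes varied widely among them. Mki67 had a median of 7, 6 and 6.5 UMIs per cycling barcode, with the highest at 65, 43 and 55. Top2a had a median of 5, 4 and 5 UMIs, with the highest at 42, 51 and 64. Just inside the rule, 17, 11 and 45 barcodes had a single Mki67 UMI and 22, 15 and 53 a single Top2a UMI. Just outside it, 153, 127 and 268 barcodes with Csf1r had Mki67 without Top2a, and 129, 64 and 174 had Top2a without Mki67. Csf1r, present by the rule in both sets, was at 312, 412 and 450 CPM in cycling barcodes and at 675, 666 and 637 CPM in non-cycling ones.

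Most of the cycling barcodes also had a high share of their UMIs in other cell cycle genes. The share was taken over 98 replication, G2 and mitosis genes, none of them used by the rule. It exceeded the 99th percentile of the non-cycling barcodes of the same library in 259 of 349 cycling barcodes (74.2%). By library these were 77 of 102, 32 of 49 and 150 of 198. This criterion was added after the data were seen. Among the barcodes just outside the rule it was met by 38 of 548 with Mki67 alone and 20 of 367 with Top2a alone. The cycling barcodes below it were close to the edge of the rule, with median Mki67 counts of 1, 2 and 1 against 11, 11.5 and 10 above it. Counting only the barcodes above it, the shares were 4.64%, 2.88% and 6.19%, with log2 ratios to the control of -0.69 (-1.27 to -0.10) in HHcy and 0.41 (0.027 to 0.80) in WD.

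Cycling barcodes were deep, and depth moved with every share given here. Their median was 19362, 15004 and 20668.5 UMIs, against 7678.5, 8247 and 9061 in non-cycling barcodes, and their median number of detected genes was 4274, 3881 and 4427.5 against 2424, 2526 and 2673. Mitochondrial shares were close, at medians of 3.22%, 3.67% and 3.67% against 3.06%, 3.26% and 3.41%. Within barcodes of 20000 to 40000 UMIs, 32.6%, 19.5% and 29.3% were cycling, and in this band the WD share was not above the control share. Between 10000 and 20000 UMIs the shares were 6.33%, 5.10% and 8.27%. In all, the WD share was above the control share in 2 of 6 bands of depth and not above it in 4: it was at 2.04% against 2.11% between 3000 and 6000 UMIs, at 2.35% against 3.14% between 6000 and 10000, and at 40.9% against 70% over 40000. The library labelled HHcy was below the control in 5 of the 6 bands. With every barcode thinned to 3000 UMIs, the shares were 2.30%, 2.05% and 2.85%, from 30, 18 and 55 cycling barcodes. The 203, 97 and 222 cycling or non-cycling barcodes below that depth were left out. Csf1r, Mki67 and Top2a were counted anew after thinning, so barcodes that lost Csf1r also dropped out. Csf1r CPM was lower in cycling barcodes, with the limit given above, and the part of this loss in the thinned shares was not tested. The thinned ratios to the control stood at -0.17 (-1.0 to 0.67) in HHcy and at 0.31 (-0.33 to 0.94), so the order of the libraries was not resolved at that depth. For comparison, B cell barcodes without Csf1r held Mki67 and Top2a together in 3.31%, 2.62% and 2.0% of cases, at medians of 7809, 6580 and 6825.5 UMIs. The libraries thus stood in another order among B cells, with the control highest and WD lowest. B cells divide too, so these shares are not a floor set by free RNA.

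**Figure D1:**
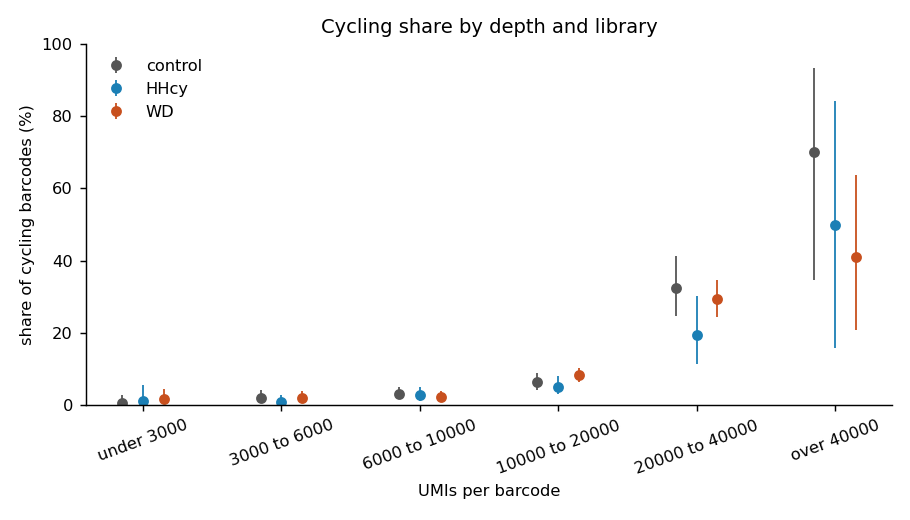
Share of cycling barcodes (y axis, %) in bands of UMIs per barcode (x axis), with points for the 3 libraries and bars for 95% Clopper-Pearson intervals. In the 20000 to 40000 band the 3 libraries, in the order above, stood at 32.6%, 19.5% and 29.3%, and over 40000 UMIs the bands held only 10, 8 and 22 barcodes.

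The Csf1r barcodes were divided by marker gates, each a small set of genes counted in raw UMIs, and a barcode could pass several. Among the 349 cycling barcodes, 54 passed no gate, 115 passed 1 and 180 passed several. The name cycling macrophages and monocytes held only in part: 83 of 349 (23.8%) passed a dendritic cell or progenitor gate, against 169 of the 4844 non-cycling barcodes (3.49%). Macrophage core genes such as Lyz2 (lysozyme; 4857, 6139 and 4009 CPM) and C1qa (a complement subunit; 1296, 1731 and 2575 CPM) were present in the summed cycling barcodes, below the non-cycling levels of 7456, 11913 and 8382 CPM for Lyz2 and of 1680, 2223 and 2953 CPM for C1qa. The summed macrophage core list was lower in cycling barcodes in each library, with log2 ratios of -0.54, -0.73 and -0.59. All 11 genes of the macrophage core list were measured well enough for comparison, and 0 differed by 2-fold or more in all 3 libraries.

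The highest shares belonged to barcodes with neutrophil and monocyte progenitor genes. Mpo and Elane encode granule enzymes made in the bone marrow by granulocyte and monocyte precursors. Of the barcodes with at least 2 UMIs of Mpo and Elane together, 7 of 8, 3 of 6 and 12 of 13 were cycling. All 22 of these also passed the criterion on other cycle genes. Mpo itself was found in 11, 3 and 15 cycling barcodes, at 295, 107 and 270 CPM, and 98.0% of its UMIs in the library labelled HHcy lay in 1 barcode. Elane was found in 8, 5 and 17.

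Dendritic cell gates followed. Xcr1 and Clec9a mark the conventional dendritic cells that present antigen of dead cells, and 17 of 39 (43.6%, 27.8 to 60.4), 1 of 20 (5.00%, 0.127 to 24.9) and 14 of 35 (40.0%, 23.9 to 57.9) barcodes of this gate were cycling. The library labelled HHcy stood apart there on a single cycling barcode. For Flt3 with Cd209a, markers of the other conventional dendritic cells and of their monocyte-derived relatives, the counts were 10 of 44 (22.7%, 11.5 to 37.8), 4 of 26 (15.4%, 4.36 to 34.9) and 22 of 71 (31.0%, 20.5 to 43.1). Both gates held deep barcodes even without cycling: the non-cycling ones had medians of 15104 to 18669 UMIs over the 3 libraries. The part of depth in these shares was not tested. Among barcodes of at least 10000 UMIs the shares were 47.2%, 6.25% and 43.8% for Xcr1 Clec9a and 24.3%, 16.7% and 31.9% for Flt3 Cd209a, against 13.1%, 8.45% and 14.7% of all barcodes at that depth. Xcr1 Clec9a in the library labelled HHcy lay below the share of all barcodes, and the other 5 values lay above it.

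Among monocytes, the classical Ly6c2 Ccr2 gate held a larger share of cycling barcodes than the non-classical Treml4 Ace gate in each library. Ly6c2 and Ccr2 mark monocytes newly released from marrow, and 16 of 206 (7.77%, 4.50 to 12.3), 13 of 168 (7.74%, 4.18 to 12.9) and 27 of 175 (15.4%, 10.4 to 21.6) were cycling. Treml4 and Ace mark patrolling monocytes, and 12 of 535 (2.24%, 1.16 to 3.89), 12 of 287 (4.18%, 2.18 to 7.19) and 29 of 568 (5.11%, 3.45 to 7.25) were cycling. The intervals of the 2 gates were apart in the control and WD libraries and overlapped in the library labelled HHcy. In another setting, barcodes that carried genes of other lineages, progenitor genes among them, were left out. The Ly6c2 Ccr2 shares were then 4.23% (8 of 189), 8.33% (11 of 132) and 8.90% (13 of 146). Those of Treml4 Ace were 1.41%, 3.95% and 3.31%. Under that condition the control share of Ly6c2 Ccr2 was below the 4.75% of all barcodes. When each barcode was given to 1 class only, by an order that left out Il1b Nlrp3 and placed the other gates except Ms4a7 before Ly6c2 Ccr2, the Ly6c2 Ccr2 class was at 8.0%, 8.97% and 8.82%, and the WD library no longer stood above the others.

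Shares in the 3 macrophage gates ran from 4.74% to 9.76% over all depths. Non-cycling barcodes had medians of 6052, 6942 and 9010 UMIs for Lyve1 Folr2 and of 17298, 14855 and 17135 for Gpnmb Trem2. Among barcodes of at least 10000 UMIs, Lyve1 Folr2 was at 20%, 18.8% and 12.0% and Gpnmb Trem2 at 10.7%, 8.33% and 8.27%, the reverse of their order over all depths. Ms4a7 was then at 9.28%, 7.46% and 17.3%, against 13.1%, 8.45% and 14.7% of all barcodes at that depth. Lyve1 Folr2, markers of resident macrophages around vessels, held 19 of 281 (6.76%, 4.12 to 10.4), 13 of 274 (4.74%, 2.55 to 7.98) and 28 of 445 (6.29%, 4.22 to 8.97), with no order of the libraries beyond counting error. Without barcodes that carried genes of other lineages, this gate was at 5.47%, 2.17% and 4.50%. Gpnmb Trem2, genes of lipid-laden macrophages, held 6 of 65 (9.23%, 3.46 to 19.0), 2 of 28 (7.14%, 0.877 to 23.5) and 13 of 158 (8.23%, 4.45 to 13.7). Of these 21 barcodes only 6, all in the WD library, passed the criterion on other cycle genes, the lowest proportion of the 9 gates. Ms4a7 macrophages without Lyve1, Folr2 or Gpnmb held 13 of 233 (5.58%, 3.0 to 9.35), 7 of 145 (4.83%, 1.96 to 9.69) and 57 of 584 (9.76%, 7.48 to 12.5). In this gate 9 of 13, 1 of 7 and 44 of 57 passed the criterion. Ms4a7 also had UMIs in 2.43%, 2.74% and 6.52% of B cell barcodes, so part of that gate is at the level of background.

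Inflammatory genes crossed the other gates. Il1b, an inflammatory cytokine, and Nlrp3, the sensor of the inflammasome that activates it, were found together in 49 of 102, 22 of 49 and 116 of 198 cycling barcodes. These were 48.0%, 44.9% and 58.6% of cycling barcodes, against 42.0%, 47.2% and 45.3% of non-cycling ones, which were less deep. In the library labelled HHcy the cycling value was thus the lower one. Both genes together also had UMIs in 2.09%, 2.45% and 3.04% of B cell barcodes. Of all barcodes with both, 6.98% (5.21 to 9.12), 4.21% (2.65 to 6.30) and 10.3% (8.60 to 12.2) were cycling. Over all 9 gates, 5 had a higher share inside than outside in each of the 3 libraries: Mpo Elane, Xcr1 Clec9a, Flt3 Cd209a, Ly6c2 Ccr2 and Gpnmb Trem2. Only 2 of these did so among barcodes of at least 10000 UMIs, and 1 after thinning.

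**Figure D2:**
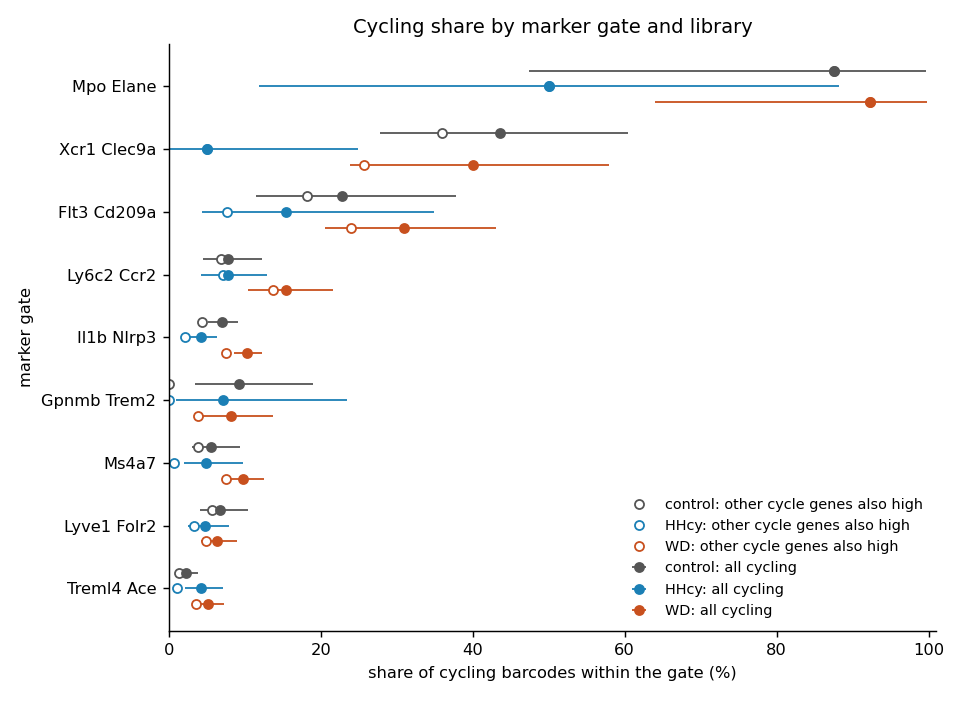
Share of cycling barcodes (x axis, %) within each marker gate (y axis) for the 3 libraries, with bars for 95% Clopper-Pearson intervals. The Mpo Elane gate lies highest at 87.5%, 50% and 92.3%, and the Treml4 Ace gate lowest at 2.24%, 4.18% and 5.11%. In the library labelled HHcy it lies close to the Il1b Nlrp3 gate at 4.21%.

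Barcodes with genes of other lineages moved with the cycling set. At limits of 3 to 5 genes of another lineage, chosen after the data were seen, 29, 16 and 54 cycling barcodes (28.4%, 32.7% and 27.3%) carried such genes, against 5.85%, 21.2% and 11.0% of non-cycling ones. The limits count detected genes, of which cycling barcodes had more in all (medians of 4274, 3881 and 4427.5 against 2424, 2526 and 2673). How far depth made this difference was not tested. Neutrophil genes marked 13, 7 and 22 of them, progenitor genes 7, 4 and 13, T and NK cell genes 7, 6 and 12, and B cell genes 7, 4 and 6. Without all such barcodes the shares were 4.75% (3.74 to 5.93), 3.80% (2.63 to 5.29) and 6.78% (5.74 to 7.93). Since the progenitor list was among them, 0 cycling barcodes of the Mpo Elane gate were left in each library. Whether these barcodes were pairs of cells was not tested, and no doublet caller was run.

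The phases of the cycle were read from the UMIs of 41 replication and 57 G2 and mitosis genes. Cycling barcodes had medians of 37, 20 and 33.5 replication UMIs and 49.5, 41 and 60 G2 and mitosis UMIs, against 3, 3 and 4 and 2, 3 and 3 in non-cycling barcodes. More G2 and mitosis than replication UMIs were found in 55 of 102, 31 of 49 and 115 of 198. The highest single count was 1146 G2 and mitosis UMIs, in a WD barcode of 76000 UMIs in all. Since Top2a and Mki67 themselves peak late in the cycle, the rule favours barcodes in that phase, and the balance describes the chosen barcodes only.

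**Figure D3:**
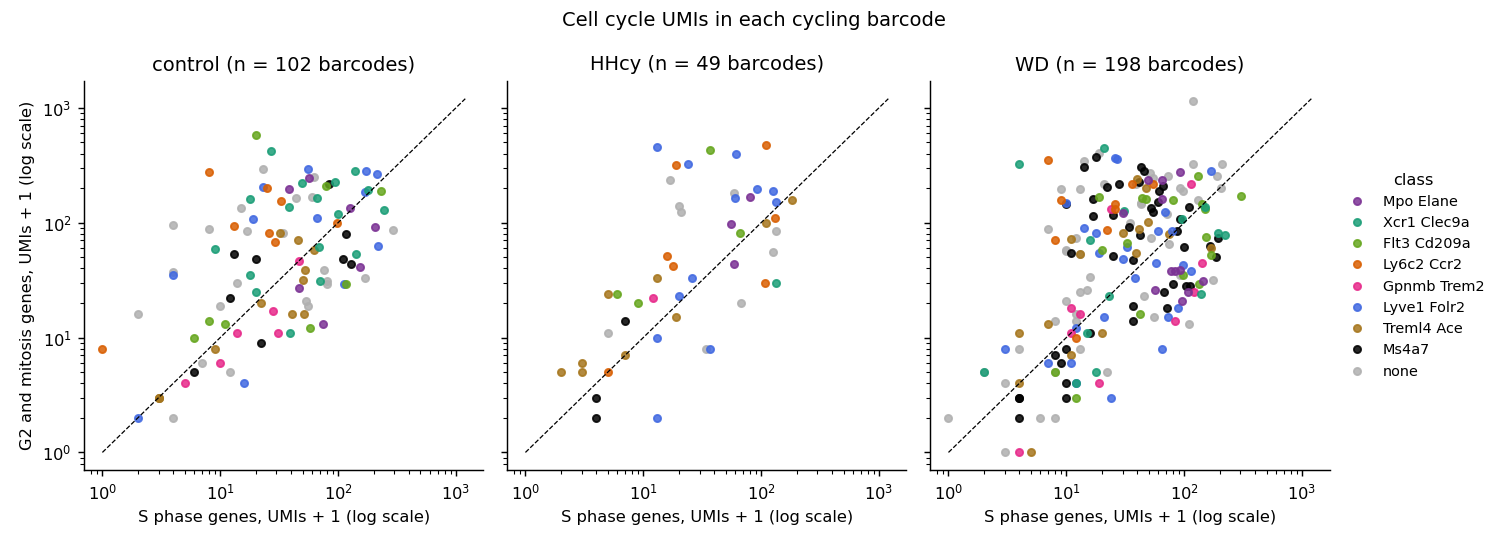
UMIs plus 1 of S phase genes (x axis, log scale) against those of G2 and mitosis genes (y axis, log scale) in each cycling barcode, 1 panel for each library, coloured by exclusive marker class; the dashed line marks equal counts. Points lie on both sides of the line in all 3 panels, with 55 of 102, 31 of 49 and 115 of 198 above it.

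Classes differed in this balance, and their order differed between libraries. Summed over the libraries, the ratio of G2 and mitosis UMIs to replication UMIs was 4.14 in the 24 cycling barcodes of the Ly6c2 Ccr2 class, 1.96 in the 50 of Lyve1 Folr2, 1.79 in the 56 of Ms4a7, 1.59 in the 32 of Xcr1 Clec9a, 1.49 in the 29 of Flt3 Cd209a, 1.40 in the 36 of Treml4 Ace, 1.24 in the 22 of Mpo Elane and 0.867 in the 17 of Gpnmb Trem2, with 2.24 in the 83 of no class. By library the Ly6c2 Ccr2 ratio was 4.32, 2.55 and 7.24. In the library labelled HHcy it was below that of Flt3 Cd209a (4.87, 4 barcodes) and that of Lyve1 Folr2 (3.21, 12 barcodes). The Ly6c2 Ccr2 class had 7914, 8515 and 9062 CPM of G2 and mitosis genes in 8, 7 and 9 barcodes. Summed over all barcodes of the class, that level, unlike the ratio, was the highest of all classes in each library. In the library labelled HHcy, 472 of its 1018 G2 and mitosis UMIs lay in 1 barcode. The next classes there were at 6830 CPM (Mpo Elane), 6735 CPM (Flt3 Cd209a) and 6681 CPM (Lyve1 Folr2), and the order without that barcode was not tested. Replication genes were highest in the Mpo Elane class in the library labelled HHcy (4294 CPM) and also in WD (3869 CPM), while in the control library Lyve1 Folr2 was highest (4460 CPM, with Mpo Elane at 4367 CPM). The Ms4a7 class of the library labelled HHcy, 3 barcodes, had only 424 CPM of G2 and mitosis genes, while the same class was at 3061 and 5321 CPM in the control and WD libraries.

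**Figure D4:**
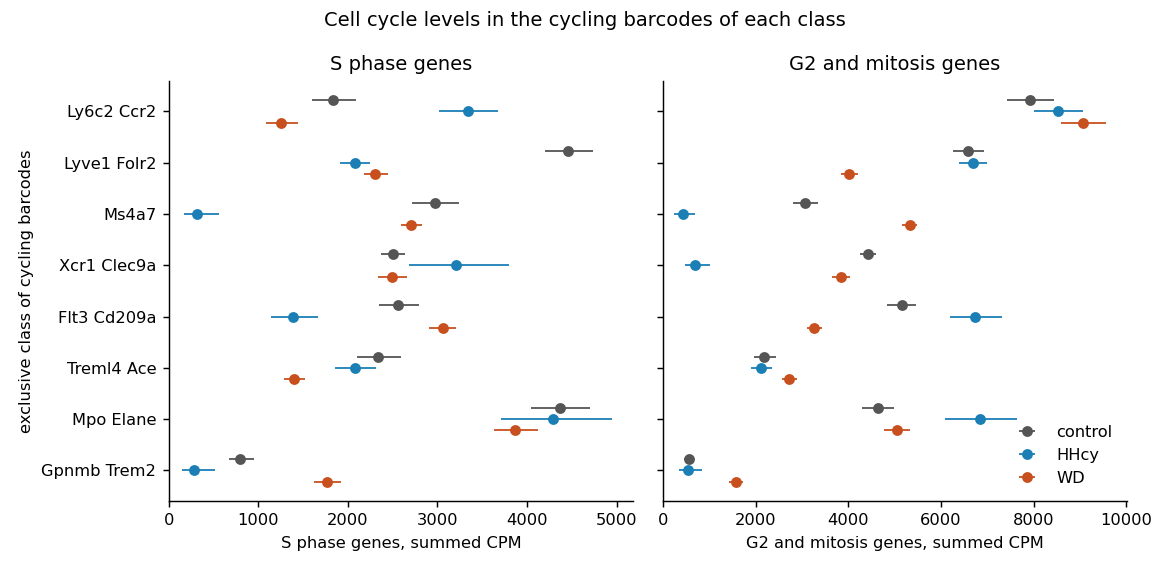
Summed CPM of S phase genes and of G2 and mitosis genes (x axes) in the cycling barcodes of each exclusive class (y axis) for the 3 libraries, with bars for 95% Poisson intervals. The Ly6c2 Ccr2 class is the highest for G2 and mitosis genes, at 7914, 8515 and 9062 CPM.

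Gene levels in cycling and non-cycling barcodes were compared as sums of UMIs within each library. Since the barcodes were chosen by genes of the same cells, these differences describe the chosen set and no test was made. Of 9102 genes with enough UMIs, 294 (3.23%) were at least 2-fold higher in cycling barcodes in all 3 libraries and 92 (1.01%) at least 2-fold lower. The median log2 ratio over all tested genes was -0.02, 0.04 and 0.03. Of the 294, 80 belonged to the cell cycle lists and 214 did not.

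Replication genes were higher almost as a block, 25 of 26 tested, with list medians of 3.31, 2.93 and 2.67 on the log2 scale. Pcna, the sliding clamp of DNA polymerase, was at 385, 318 and 323 CPM against 152, 116 and 139 CPM in non-cycling barcodes, log2 ratios of 1.34, 1.46 and 1.21. Dut, which keeps uracil out of DNA, was at 153, 133 and 133 CPM against 8.40, 9.59 and 10.8, a larger difference of 4.19, 3.79 and 3.62. Slbp, which binds histone mRNA, was at 154, 144 and 120 CPM against 57.0, 50.2 and 47.2. Among the largest differences of the list, Rrm2, which makes deoxynucleotides, was at 110, 106 and 73.4 CPM against 1.08, 0.979 and 1.21 CPM. The 1 replication gene under the limit was Pold3, a subunit of DNA polymerase delta. Mcm3, whose window is printed above, was at 112, 78.5 and 103 CPM against 17.4, 17.2 and 20.8.

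G2 and mitosis genes showed larger differences, with 34 of 36 tested higher and medians of 5.42, 5.35 and 5.21. Birc5, a chromosomal passenger protein, was at 232, 281 and 232 CPM against 1.72, 2.45 and 2.55. Ube2c was at 274, 376 and 358 CPM against 3.16, 5.09 and 3.85, in 50, 26 and 116 cycling barcodes. Smc4, a condensin subunit that compacts chromosomes, was at 305, 329 and 303 CPM against 52.9, 49.4 and 48.9. The 2 exceptions were Cks2, a kinase partner at 247, 321 and 254 CPM against 146, 139 and 104, and Pttg1 (securin). Pttg1 was slightly lower in cycling barcodes, at 38.5, 31.8 and 38.8 CPM against 46.7, 54.2 and 47.3, log2 ratios of -0.28, -0.77 and -0.29.

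Chromatin genes followed, with 19 of 21 higher. Hmgb2, a chromatin protein of dividing cells, was at 1986, 1988 and 1454 CPM against 279, 307 and 239. Stmn1, which destabilises microtubules, was at 801, 841 and 789 CPM against 17.5, 18.5 and 24.3. H2afz, a histone variant, was at 2228, 1994 and 1834 CPM against 610, 565 and 632. The linker histone Hist1h1c and the lamin Lmnb1 were the 2 under the limit.

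Genes that start the cycle or hold it back differed less. Of 9 tested G1 genes, 2 were at least 2-fold higher in each library: Cdk2 (log2 ratios 1.36, 1.55 and 1.37) and Cdk4 (1.38, 1.14 and 1.14). Ccnd1, the cyclin that partners Cdk4 and answers to growth factors, was at 146, 114 and 206 CPM against 95.4, 71.8 and 127, log2 ratios of 0.61, 0.66 and 0.70. Of 24 inhibitors and quiescence factors, 2 were higher, Cdkn2c (2.99, 2.33 and 2.44) and Rbl1 (1.99, 2.08 and 2.12), and 0 were lower. Cdkn1a (p21), an inhibitor of cyclin-dependent kinases, was at 467, 396 and 557 CPM against 589, 432 and 515, within a log2 ratio of -0.33 to 0.11. Btg1, an antiproliferative gene, stood at 849, 687 and 722 CPM against 1217, 1178 and 996.

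Of 17 growth factor genes tested, 2 were higher and 2 lower. The receptor genes Flt3 (log2 ratios 1.81, 1.07 and 1.14) and Kit (1.27, 2.01 and 1.99) of early progenitors and dendritic precursors were higher. Csf1, the ligand of Csf1r, was lower at 8.19, 4.24 and 12.0 CPM against 25.2, 56.8 and 32.2, and Csf3r, the G-CSF receptor of neutrophils, was lower at 30.8, 48.8 and 39.3 against 96.0, 174 and 89.0. Flt3 reached 31, 10 and 41 of the cycling barcodes, and without its top barcodes its ratio in the library labelled HHcy was 0.77, under 2-fold.

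Among biosynthetic lists, glycolysis had the median nearest to 0 in each library, while nucleotide and ribosome assembly genes were higher by less than 2-fold in sum. None of 18 nucleotide and one-carbon enzymes, 15 glycolysis enzymes or 11 cholesterol genes was 2-fold different in all 3 libraries, with list medians of 0.81, 0.75 and 0.67, of 0.20, 0.12 and 0.01, and of 0.45, 0.27 and 0.11. The summed nucleotide and one-carbon list was 1.43-fold, 1.53-fold and 1.36-fold that of non-cycling barcodes, and the summed ribosome assembly list 1.65-fold, 1.44-fold and 1.49-fold. Of 14 ribosome assembly genes, 1 was at least 2-fold higher in all 3 libraries, Dkc1 (1.38, 1.37 and 1.02; 0.98 in WD without its top barcodes). MHC class II (0 of 8), interferon-stimulated (0 of 11) and inflammatory genes (0 of 10) did not pass the 2-fold limit either. Cd74, the MHC class II chaperone, was at 9156, 8639 and 7324 CPM against 8835, 7686 and 8056. Of the inflammatory genes, Cxcl2, a neutrophil chemokine, was at 3694, 4658 and 5493 CPM against 6780, 8095 and 7744, and Ccl4 at 3815, 3275 and 4990 against 5208, 4848 and 5776. Isg15, an interferon-stimulated ubiquitin-like protein, was at 119, 96.5 and 158 CPM against 174, 166 and 206.

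Lists of mature monocytes and macrophages were lower in cycling barcodes, to an extent that differed between libraries. The non-classical list had medians of -1.94, -0.75 and -1.41, with 7, 2 and 6 of 10 genes at least 2-fold lower, and the resident-like list had -0.75, -0.61 and -1.16, with 4, 2 and 9 of 12. The classical list had medians of -0.26, -0.71 and -0.61, with 4, 3 and 3 of 10 genes at least 2-fold lower. The foamy-like list had -0.48, -0.60 and -0.81, with 3, 3 and 4 of 14. In the control and WD libraries these medians lay nearer 0 than those of the non-classical and resident-like lists. In the library labelled HHcy the classical median lay between those of the other lists, and the foamy-like median was near the resident-like one. In the resident-like list Selenop, a selenium transport protein, was at 472, 681 and 567 CPM against 1003, 1368 and 1305. In the foamy-like list Gpnmb was at 32.8, 3.18 and 22.3 CPM against 81.2, 35.0 and 107. In the control library 85.3% of its UMIs in cycling barcodes lay in 1 barcode. Without the barcode with most Gpnmb UMIs in either set, the control levels were 4.82 against 74.5 CPM. Other foamy-like genes split by library: Fabp5, a fatty acid carrier, was at 573, 106 and 338 CPM against 270, 255 and 673, above the non-cycling level in the control library and below it in the other two. Of the classical monocyte list Vcan (log2 ratios -1.60, -2.01 and -1.46) and Ifitm6 (-1.24, -1.50 and -1.18) were lower. Of the non-classical list Itgal, an integrin, was lower at 99.3, 140 and 69.1 CPM against 384, 293 and 198, and so was Eno3. Counting genes at least 2-fold lower in all 3 libraries at once, these 4 lists had 1 of 12, 1 of 14, 2 of 10 and 2 of 10. Of the 11 dendritic cell genes, 1 was higher in all 3 libraries, Flt3, and Naaa, a lipid hydrolase of Xcr1-type cells, was at 321, 165 and 160 CPM against 138, 137 and 133.

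Genes outside the cell cycle lists were ranked by their smallest difference over the 3 libraries. The leading higher genes were Pclaf, a clamp-binding protein (420, 386 and 311 CPM against 1.65, 2.54 and 2.76), Elane, Mpo, Hist1h2ab, Spc24, Lockd, Cit, Cenpm, Kif15 and Asf1b. Elane and Mpo belong to the progenitor list. Spc24 and Cenpm are kinetochore proteins, Kif15 is a spindle motor and Asf1b a histone chaperone. Hist1h2ab is 1 of a family of near-identical histone genes, so its reads may come from several of them. The leading lower genes were Col1a1, Tgfbr3, Sfrp2, Ogn, Cygb, Dcn, Timp3, Ctsk, Col3a1 and Serping1, of which Col1a1, Dcn and Col3a1 belong to the fibroblast, muscle and endothelial list. Among barcodes of at least 10000 UMIs, Dcn in the control library turned from a log2 ratio of -2.88 to 0.027. Without the barcode with most UMIs of each gene in either set, Ctsk, Serping1 and Sfrp2 were no longer 2-fold lower in all 3 libraries. Col1a1 was at 0.964, 2.12 and 4.23 CPM against 22.2, 93.1 and 63.0. The 12 fibroblast, muscle and endothelial genes, 1 of which (Fabp4) macrophages also express, together were at 151, 114 and 283 CPM in cycling barcodes and 327, 899 and 617 CPM in non-cycling ones. At least 4 of these genes were carried by 0 of 102, 1 of 49 and 6 of 198 cycling barcodes. Among non-cycling barcodes it was 9 of 1556, 24 of 1061 and 58 of 2227. The part of such barcodes in these lower values was not tested.

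T and NK cell genes were higher in summed cycling barcodes in spite of the exclusion of Cd3e, with much of this in single barcodes. Of 7 tested, 5 were at least 2-fold higher in all 3 libraries: Nkg7, a granule protein of cytotoxic cells (69.9, 260 and 45.6 CPM against 7.53, 11.0 and 10.7), Gzma, Lck, Trbc1 and Trbc2. Gzma, a cytotoxic granule protease, was found in 8, 6 and 13 cycling barcodes, at 54.9, 1110 and 139 CPM. In the control library 92.1% of its UMIs lay in 1 barcode. Without the barcode with most Gzma UMIs in either set its control ratio turned from 1.49 to -1.30, while it was 5.00 in the library labelled HHcy and 3.80 in WD. Of the 5 genes, only Nkg7 was still at least 2-fold higher in all 3 libraries under that condition (3.10, 4.49 and 2.22). The progenitor list had 4 of 5 higher, Mpo, Elane, Prtn3 (365, 150 and 272 CPM against 25.1, 40.8 and 27.1) and Kit. Without the top barcodes 3 of these 4 were still so, and Prtn3 in the library labelled HHcy turned from 1.87 to -0.28, with 78.7% of its UMIs there in 1 barcode. Neutrophil genes had 2 of 10 lower, Cxcr2 and Csf3r, while the summed list was at 10199, 20143 and 3174 CPM against 3205, 21131 and 5326.

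**Figure D5:**
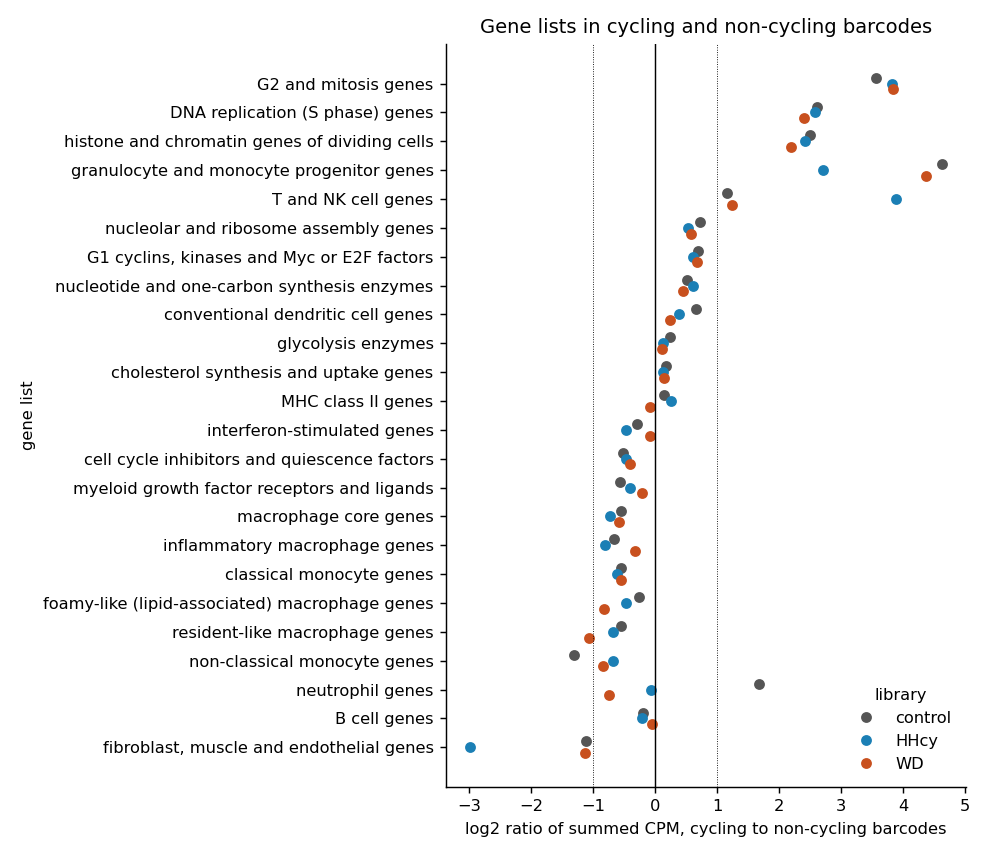
Log2 ratio of summed CPM in cycling to non-cycling barcodes (x axis) for each gene list (y axis), with points for the 3 libraries and dotted lines at 2-fold. The G2 and mitosis list (3.56, 3.82 and 3.83) and the progenitor list (4.63, 2.71 and 4.37) lie far to the right in each library, and the T and NK list lies farthest right in the library labelled HHcy, at 3.88.

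Between libraries, cycling barcodes of the WD and control libraries were first compared. Of 9517 genes tested, 232 (2.44%) were at least 2-fold higher and 171 (1.8%) at least 2-fold lower in the WD library. The genes with the interval bound farthest above 0 were Tm4sf1, Acta2, Mgp, Tagln and Igfbp7, genes of muscle, endothelium and matrix. Tm4sf1 was at 0.482, 0 and 93.8 CPM, but 97.2% of its WD UMIs lay in 1 barcode, as did 95.4% of Acta2, 92.3% of Mgp, 93.9% of Tagln and 87.7% of Igfbp7. Without that barcode the log2 ratio of Mgp, which was 4.70, was 1.18. Of the genes far below 0, Myl10 and Gm26737 were found in 1 control barcode each and Dntt in 2.

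Camp and Ngp, granule proteins of immature neutrophils, were lower in the WD library with less reliance on 1 barcode. In the control library 37.5% of Camp UMIs and 32.7% of Ngp UMIs still lay in 1 barcode. Camp was at 1252, 1439 and 266 CPM, in 22, 11 and 26 cycling barcodes, a WD to control log2 ratio of -2.24 (-2.14 without the top barcode of each library). Ngp was at 651, 707 and 135 CPM, a ratio of -2.27 (-2.20 without it). In non-cycling barcodes the ratios were 0.98 and 0.84, in the other direction. Neutrophil genes as a list had a median of -1.55 in the WD library in cycling barcodes and 0.74 in non-cycling ones, with 5 of 9 lower and 0 higher.

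The cell cycle lists differed little between libraries. Relative to the control, G2 and mitosis genes had log2 medians of 0.25 (HHcy) and 0.07 (WD), and replication genes of -0.27 and -0.22, against 0.02 and 0.01 over all tested genes. Of 57 G2 and mitosis genes, 44 were above 0 in HHcy against control and 34 in WD against control, and of 41 replication genes 8 were in each. Rrm2, at 110, 106 and 73.4 CPM, and Ccnb1, a mitotic cyclin, at 46.7, 82.7 and 56.9 CPM, are examples. Interferon-stimulated genes were higher in the WD library in all 11 cases, median 0.61, of which 2 were over 2-fold, and the same list was at 0.67 in non-cycling barcodes. Ifit3, an antiviral gene, was at 13.5, 26.5 and 41.6 CPM. In the library labelled HHcy the list's median was -0.04.

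In the library labelled HHcy, 310 of 9517 genes (3.26%) were at least 2-fold higher and 424 (4.46%) at least 2-fold lower than in the control. Klra4, Klra1 and Gzma, genes of NK cells and cytotoxic T cells, led the higher genes with Apoc1 and Apoe. Klra4 UMIs came from 2 barcodes and Klra1 UMIs from 1, so these are counts of a few barcodes. Gzma was found in 6 barcodes, and the T and NK list was higher by a median of 1.87, with 7 of 8 genes at least 2-fold higher, against 0.51 in non-cycling barcodes. Apoe had a log2 ratio of 4.07 (3.58 without the top barcode) in cycling barcodes and 4.98 in non-cycling ones. The lower genes were led by Ccl17, Dntt, Pdpn, Itgae and Spp1. Itgae, an integrin of Xcr1-type dendritic cells, was in 12 control barcodes and 0 of the library labelled HHcy, whose 1 cycling Xcr1 Clec9a barcode compares with 17 in the control. Spp1 (osteopontin) was at 951, 106 and 341 CPM, with 54.1% of its control UMIs in 1 barcode. Its ratio of -3.16 was -2.60 without the top barcode of each library and -2.09 in non-cycling barcodes, and it turned to 0.54 when every barcode was thinned to 3000 UMIs.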

How the data were processed

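Single-cell RNA libraries of sorted aortic CD45+ cells, made with the Chromium 3′ v3 kit per the labels' protocols, gave 1 deposited matrix for each of 3 conditions. The values are raw UMI counts per gene and barcode as the authors deposited them, with 32285 genes. The submitters' processing notes name Cell Ranger 2.2.0 and mm10, while the file headers name Cell Ranger 4.0.0; which version made the deposited counts is not given in the sources used here. There were 0 columns of samples outside the series.

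The members and the gene lists were chosen with earlier results of these data known, so no pattern is independent support. Per library, UMIs were summed over cycling and over non-cycling barcodes and divided by their total to give CPM. Differences are log2 ratios of CPM with exact conditional binomial intervals; single levels have Poisson intervals and shares Clopper-Pearson intervals, all at 95% and covering counting error only. A gene was tested where at least 5 UMIs were expected in the cycling barcodes of every library, and counted where the ratio was at least 2-fold. A gene with 0 UMIs was given the value of 3 UMIs, and its ratio is then a bound. The 2-fold counts involve no p-value. The genes named were the rule genes and up to 4 members of each list by summed UMIs. The 10 highest and 10 lowest outside the cycle lists were named by their smallest ratio over the 3 libraries. For differences between libraries, 5 each way were named by interval bound. All other genes in the text were chosen after their values were seen. They were every gene called in a list or its exceptions, or, for Rrm2, Naaa, Ccnb1 and Ifit3, were chosen for their role. Mcm3 was the higher replication gene with most UMIs in cycling barcodes among those with an E2F match in the promoter window. For the non-exclusive gates, Lyve1 Folr2, Gpnmb Trem2, Flt3 Cd209a and Il1b Nlrp3 needed 1 UMI of each gene, Ly6c2 Ccr2 at least 2 of Ly6c2 and 1 of Ccr2 with no Ms4a7, and Treml4 Ace, Xcr1 Clec9a and Mpo Elane at least 2 UMIs in sum. Barcodes with B or T cell genes beyond Cd79a and Cd3e were screened with marker lists, and no doublet caller was run. Thinning drew 3000 UMIs from each barcode with seed 1, and exclusion by Cd79a and Cd3e used the full counts. Promoter windows came from RefSeq on GRCm38.p6. The ratio step was tested on simulated data. Work used Python 3.11.15, numpy 2.4.6, scipy 1.17.1, pandas 2.3.3 and matplotlib 3.10.9. Alternatives were another mitochondrial or gene limit, 2 UMIs of each cycle gene, removal of barcodes with other-lineage genes, thinning, other denominators, gate limits, weightings and UMI limits.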

Additional observations from a re-analysis of the deposited data

How the results depend on the processing

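The shares over all barcodes of a setting stood in the order WD, control, HHcy under each of the 10 alternatives run, with WD to control log2 ratios of 0.17 to 0.51 and HHcy to control ratios of -0.76 to -0.17, but the intervals reached 0 under 4 and 3 of the 10, thinning among them, and only 1 of 6 depth bands had that order. The alternatives with higher lineage limits, with other cycle genes, with at least 10000 UMIs and without each gene's top barcode were chosen after seeing the data. The shares themselves moved to 4.48%, 2.93% and 5.84% (control, HHcy, WD) with 2 UMIs each of Mki67 and Top2a, to 4.43%, 2.62% and 5.88% without barcodes with 3 or more genes of another lineage, to 2.30%, 2.05% and 2.85% after thinning, to 4.64%, 2.88% and 6.19% with other cycle genes required, to 4.75% and 6.78% (control and WD) at the higher lineage limits, to 13.1%, 8.45% and 14.7% at 10000 UMIs or more, and to 6.91% (WD) with all Csf1r barcodes as denominator. Gates higher inside than outside in all 3 libraries, 5 here, numbered 2 at 5% mitochondrial UMIs, 3 at 2 UMIs, 1 thinned, 3 at the higher lineage limits, 2 at 10000 UMIs and 3 with gate limits raised. The 294 higher genes became 62 without the 3-gene lineages, 21 thinned and 663 with no lower limit on UMIs; the 92 lower became 144 at 2 UMIs, 51 thinned, 173 with other cycle genes, 188 without each gene's top barcodes and 52 with comparators at the members' class mix. Between libraries, the 232 and 171 genes higher and lower in WD became 102 and 80 without the 3-gene lineages, 118 and 57 thinned and 732 and 679 with no limit, and the 232 became 151 at the higher lineage limits; the 310 and 424 in the library labelled HHcy became 144 and 160 thinned and 627 and 776 with no limit, and the 424 became 824 at the control class mix and 687 without the top barcodes. Dcn in the control library turned from -2.88 to 0.027 at 10000 UMIs, and Spp1 in HHcy against control from -3.16 to 0.54 thinned; the causes were not tested. Thinning left few barcodes and tested fewer genes. No paired analysis was possible because each group is 1 library and the results come from no test.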

Other observations

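Barcodes left out for over 10% mitochondrial UMIs held cycling cells too. Among those with Csf1r, 17 of 401 in the control library, 10 of 313 in the library labelled HHcy and 38 of 558 in the WD library had both Mki67 and Top2a, shares of 4.24% (2.49 to 6.70), 3.19% (1.54 to 5.80) and 6.81% (4.86 to 9.23). Their order was that of the kept barcodes, with overlapping intervals. The cycling ones had medians of 6649, 6224.5 and 6085.5 UMIs, below those of the kept cycling barcodes.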
